A study of Homo sapiens with 6 samples.

Results

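SP100, SP110, SP140, SP140L, PML, DAXX and ATRX, genes of the SP100 family and of PML nuclear bodies, were followed after depletion of the long noncoding RNA EGOT. They were taken by gene symbol from the array's platform annotation, and all 7 were measured, out of 14812 genes. Where a gene had several probe sets, which here was DAXX alone with 5, it was represented by the probe set whose mean over all arrays was highest. The group was selected on an earlier result of these data, the lower SP100 signal in the comparison of EGOT gapmer with control gapmer. The values and p-values of that comparison below therefore describe the genes and are no independent evidence of their direction. The arrays read total RNA of HuH7, a human hepatoma cell line. In the EGOT gapmer group, 3 samples received 50 pmol of a gapmer against EGOT, a short oligonucleotide that directs RNase H to cleave a matching RNA. In the control gapmer group, 3 samples received 50 pmol of a control gapmer. Both groups also received 0.3 µg of plasmid for PKR, a kinase that senses double-stranded RNA, together with poly I:C, which imitates such RNA, and cells were taken 36 hours after transfection. The design therefore has 1 gapmer against EGOT, 1 control gapmer and no cells without PKR and poly I:C. Whether the replicates were separate cultures is not stated in the labels, and the spread that the p-values rest on may be technical.

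PML nuclear bodies are small protein assemblies in the nucleus, built on the protein PML and held together by SUMO, a small modifier that PML and its partners carry and bind. SP100 is a permanent resident of these bodies, and DAXX with ATRX brings the histone variant H3.3 onto silent chromatin and onto incoming viral DNA. Interferon raises the transcripts of PML and SP100, and many viruses encode proteins that disperse the bodies. SP110, SP140 and SP140L are relatives of SP100 with SAND domains and, in their longer isoforms, chromatin-reading modules. SP110 and SP140 are best known from leukocytes.

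The 4 SP100 family genes stand together on chromosome 2 (GRCh38.p14, the build of the RefSeq gene table, since the array's own build is not given in the sources used here). SP110 spans 230165186 to 230225636, SP140 230186151 to 230316571, SP140L 230327193 to 230403732 and SP100 230416201 to 230545606. PML lies on chromosome 15 at 73994716 to 74047827, DAXX on chromosome 6 at 33318558 to 33322959 and ATRX on chromosome X at 77504880 to 77786216. SP110 is read from the minus strand and SP140 from the plus strand, and the RefSeq span of SP140 begins inside SP110. The window at hand for SP140 belongs to another of its starts, at 230225736, which 99 bases separate from the SP110 start at 230225636, so that a single stretch of DNA lies before these 2 starts. RefSeq windows of 300 bases, 250 before to 50 after a start, were at hand for the 4 family genes, 6 windows in all. The stretches that hold a run of 16 bases shared by the family are shown because 2 of the 4 genes beside them fell and the other 2 did not pass the test. Capitals mark the run, TTTCACTTNTCTTTTC or its reverse complement.
SP100, chr2:230415951-230416200, plus strand: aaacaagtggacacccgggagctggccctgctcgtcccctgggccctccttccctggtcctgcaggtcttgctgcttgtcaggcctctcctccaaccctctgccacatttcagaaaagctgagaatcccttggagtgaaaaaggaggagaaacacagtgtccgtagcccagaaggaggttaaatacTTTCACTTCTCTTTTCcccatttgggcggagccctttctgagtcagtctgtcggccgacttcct
SP140L, chr2:230326943-230327192, plus strand: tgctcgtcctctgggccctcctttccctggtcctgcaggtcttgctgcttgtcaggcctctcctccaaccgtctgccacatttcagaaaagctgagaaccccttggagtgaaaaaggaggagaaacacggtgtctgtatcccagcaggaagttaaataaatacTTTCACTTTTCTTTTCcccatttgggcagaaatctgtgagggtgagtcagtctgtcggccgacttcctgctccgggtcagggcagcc
SP110 and SP140, chr2:230225637-230225765, minus strand, from 30 bases past that SP140 start to the SP110 start: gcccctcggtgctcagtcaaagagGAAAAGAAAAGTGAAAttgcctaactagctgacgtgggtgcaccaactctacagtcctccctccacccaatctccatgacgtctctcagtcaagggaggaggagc
Between SP140L and SP100 the run differs by T9C, with SP140L's base given before the position, counted from 1 at the run's 5′ end on the plus strand. The SP100 and SP140L windows were 84.3% identical over their 300 bases, whereas the other pairs in the same orientation reached 59.3% to 61.3%. The run ends 49 bases before the SP100 start, 72 before the SP140L start and 90 before the SP110 start, and it overlaps the SP140 start at 230225736. A further SP110 start has a window of its own, in which the run ends 36 bases before the start, and the window of a further SP100 start lacks it. The run is the longest that these family windows share with at most 1 variable base, so its presence in them is not a finding. With both strands searched, it was found in 5 of 35116 RefSeq windows (0.0142%), and all 5 belong to the family, the SP110 and SP140 windows sharing 199 bases. A run of 16 bases is rare by its length alone, so its absence from other windows is not a finding either. AANNGAAA, a core letter pattern of sites bound by interferon regulatory factors, is held by 22.8% of all windows. It was found in 5 of the 6 family windows. Every match there lies inside the run, so these matches are not separate from the sharing of the run. The stricter pattern, GAAA and GAAA again after any 2 bases, was found in 0 of the 6 and in 3.57% of all windows. These matches describe letters and do not show binding.

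EGOT, the targeted RNA, was lower in the EGOT gapmer arrays. Its log2 expression values were 4.91, 4.90 and 4.69 with the EGOT gapmer, against 6.29, 6.79 and 6.71 with the control gapmer. Its log2 difference, -1.76, had a standard error of 0.142 (limma adjusted p = 0.0076), and a two-sided exact permutation test gave p = 0.1, the smallest that 3 arrays against 3 allow. Array medians ran from 5.08 to 5.23, and EGOT gapmer replicate 2 had the highest. Of the hepatocyte and hepatoma markers ALB, AFP, APOB and TTR were among the 9 measured, at mean log2 values of 11.4 or more in both groups. By the same limma fit 1 of the 9, APOA1, rose (0.36), where 5.20% of all genes rose. APOA1 passed in 0 of 6 fits with 1 array left out, and not after quantile normalization (0.31), cyclic loess (0.31) or removal of the gene span trend (0.29). Of 7 measured leukocyte markers 2 rose and 0 fell, where 5.20% of all genes rose and 3.21% fell. CD68 rose by 1.06 and LYZ by 0.57 on the log2 scale (1.13 as the mean of its probe sets). Without control gapmer replicate 1 or 3 LYZ no longer passed, and without control gapmer replicate 2 neither did. The summed linear signal of these 7 was 1505 to 1538 in the EGOT gapmer arrays and 952 to 991 in the control gapmer arrays, and 0 of the 7 were below the median of every array. CD68 and LYZ carry that sum, and the other 5 together gave 226 to 277 in the EGOT gapmer arrays and 212 to 238 in the control gapmer arrays. Markers of fibroblasts and of endothelial cells, 2 measured of each, were below the median of every array, and 0 passed. The part that these markers have in the results below was not tested.

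SP100 fell and SP110 fell, and the other 5 genes did not pass the test. The test was limma over all 14812 genes with Benjamini-Hochberg adjustment and a threshold of 0.05, by which 8.41% of all genes passed, 3.21% lower and 5.20% higher. The 7 genes had a median log2 difference of -0.21, against 0.04 over all genes. Differences were below 0 in 6 of the 7, and in 6244 of all 14812 genes. The 3 arrays of each group did not overlap in 5 of the 7 genes, in 4 of them with the EGOT gapmer lower and in DAXX higher. Over all genes 31.7% did not overlap, 11.5% with the EGOT gapmer lower and 20.2% with it higher. With a variance trend 5 of the 7 passed, 4 lower and DAXX higher, where 17.0% of all genes passed, and 5 also passed where dim genes were left out, with 34.4% of the genes that remained. In bulk RNA, fewer cells expressing a gene and less of its RNA per cell cannot be told apart.

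**Figure D1:**
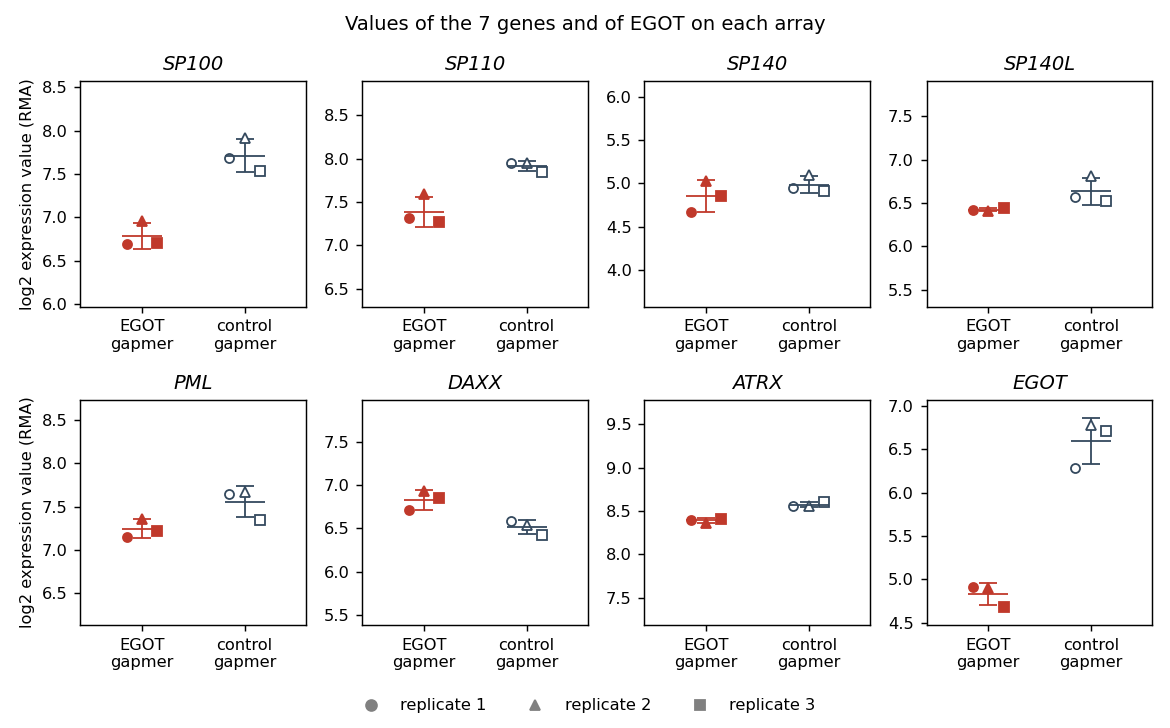
Log2 expression values (RMA) of the 7 genes and of EGOT, with the 3 EGOT gapmer arrays at the left and the 3 control gapmer arrays at the right of each panel. Markers are replicates, bars the mean and SD, and every vertical axis spans the same log2 range around its own centre. SP100 lay between 6.69 and 6.95 with the EGOT gapmer and between 7.54 and 7.91 with the control gapmer.

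SP100, the nuclear body resident that gives the family its name, had log2 values of 6.69, 6.95 and 6.70 with the EGOT gapmer, against 7.68, 7.91 and 7.54 with the control gapmer. Every EGOT gapmer array was below every control gapmer array. The means were 6.78 ± 0.148 with the EGOT gapmer and 7.71 ± 0.188 with the control gapmer (SD, n = 3 each). The log2 difference was -0.93, standard error 0.120, with a 95% interval of -1.21 to -0.65, a 1.90-fold lower signal (limma adjusted p = 0.0127). By size of the log2 difference SP100 was number 22 from the bottom of the 14812 genes. It no longer passed without EGOT gapmer replicate 3 (-0.89, limma adjusted p = 0.0516) or without control gapmer replicate 1 (-0.94, limma adjusted p = 0.0600), 2 (-0.83, limma adjusted p = 0.0600) or 3 (-1.02, limma adjusted p = 0.0517). Without EGOT gapmer replicates 1 and 2, each in turn, it passed, with differences of -0.88 and -1.01 and limma adjusted p-values of 0.0380 and 0.0318. Of all genes 3.91% passed without EGOT gapmer replicate 1, 3.41% without 2 and 1.05% without 3, and 0.392%, 0.0608% and 0.230% without control gapmer replicates 1, 2 and 3.

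SP110, an interferon-induced relative found in nuclear bodies of leukocytes, had log2 values of 7.31, 7.59 and 7.27 with the EGOT gapmer, against 7.95, 7.95 and 7.85 with the control gapmer. The groups did not overlap, and the control gapmer arrays lay closer together. The means were 7.39 ± 0.173 with the EGOT gapmer and 7.91 ± 0.0577 with the control gapmer (SD, n = 3 each). The log2 difference was -0.53 with a 95% interval of -0.76 to -0.29, a 1.44-fold lower signal (limma adjusted p = 0.0283). With 1 array left out SP110 passed only without EGOT gapmer replicate 2, the array where it was highest in that group (-0.62, limma adjusted p = 0.0318). In the other 5 such fits, which leave out EGOT gapmer replicates 1 and 3 and control gapmer replicates 1, 2 and 3, its difference was -0.56 to -0.47 and the limma adjusted p 0.0703 to 0.105.

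SP140 and SP140L, the other 2 relatives, did not pass. SP140, a chromatin reader of immune cells, had log2 values of 4.66, 5.03 and 4.86 with the EGOT gapmer, against 4.95, 5.09 and 4.91 with the control gapmer. The groups overlapped, and the values were below the array median on every array, where a change can be missed. The log2 difference of SP140 was -0.13, standard error 0.109, with a 95% interval of -0.39 to 0.12 (limma adjusted p = 0.509). SP140L, a close relative of SP140, had log2 values of 6.42, 6.41 and 6.44 with the EGOT gapmer, against 6.57, 6.81 and 6.52 with the control gapmer. The groups did not overlap, and control gapmer replicate 2 stood above the other control gapmer arrays. The log2 difference of SP140L was -0.21, standard error 0.0910, with a 95% interval of -0.42 to 0.00405 (limma adjusted p = 0.207). Without control gapmer replicate 2 it was -0.12 (limma adjusted p = 0.461). The family shares similar sequence, and whether its probe sets also read a relative's transcript was not tested. The annotated spans of SP110 and SP140 overlap on opposite strands, and whether either probe set reads the other gene's transcript was not tested either.

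PML, the scaffold of the bodies, had log2 values of 7.15, 7.36 and 7.22 with the EGOT gapmer, against 7.65, 7.67 and 7.35 with the control gapmer. The groups overlapped, because EGOT gapmer replicate 2 was slightly above control gapmer replicate 3. The log2 difference was -0.31, standard error 0.110, with a 95% interval of -0.57 to -0.05 before adjustment, and PML did not pass (limma adjusted p = 0.130). It passed with a variance trend (limma adjusted p = 0.0399) and where dim genes were left out (limma adjusted p = 0.0317). Leaving out 1 array moved its difference between -0.42, without control gapmer replicate 3, and -0.26, without control gapmer replicate 2.

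DAXX, the chaperone that carries histone H3.3 and is recruited to the bodies by SUMO-modified PML, was the 1 gene of the group with a difference above 0. Its log2 values were 6.71, 6.93 and 6.85 with the EGOT gapmer, against 6.58, 6.54 and 6.42 with the control gapmer. Every EGOT gapmer array was above every control gapmer array. The log2 difference was 0.32, standard error 0.0865, with a 95% interval of 0.11 to 0.52, and it did not pass (limma adjusted p = 0.0677). DAXX has 5 probe sets, all annotated to the same transcript, of which 2 held identical values. They are therefore not 5 independent readings. In a fit over all 15835 named probe sets their differences ran from 0.31 to 0.37, and 2 of the 5 rose (0.37, limma adjusted p = 0.0420, and 0.35, limma adjusted p = 0.0398), where 5.00% of all named probe sets rose. The mean of the 5 differed by 0.33 (limma adjusted p = 0.0512). DAXX also passed with a variance trend (limma adjusted p = 0.0307) and where dim genes were left out (limma adjusted p = 0.0113).

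ATRX, the chromatin remodeller that works with DAXX, had log2 values of 8.40, 8.36 and 8.41 with the EGOT gapmer, against 8.55, 8.56 and 8.61 with the control gapmer. The groups did not overlap, and both were tight, with SDs of 0.0245 with the EGOT gapmer and 0.0287 with the control gapmer. The log2 difference was -0.18, standard error 0.0644, with a 95% interval of -0.33 to -0.03 before adjustment, and it did not pass (limma adjusted p = 0.131). ATRX passed with a variance trend (limma adjusted p = 0.0315) and where dim genes were left out (limma adjusted p = 0.0320). It is the longest of the 7 genes at 281337 bp, and with the trend of the differences on gene span removed its log2 difference was -0.06 (limma adjusted p = 0.610). The same step left SP100 at -0.87 (limma adjusted p = 0.0231), SP110 at -0.54 (limma adjusted p = 0.0379) and DAXX at 0.23 (limma adjusted p = 0.181), with 3.44% of all genes passing.

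**Figure D2:**
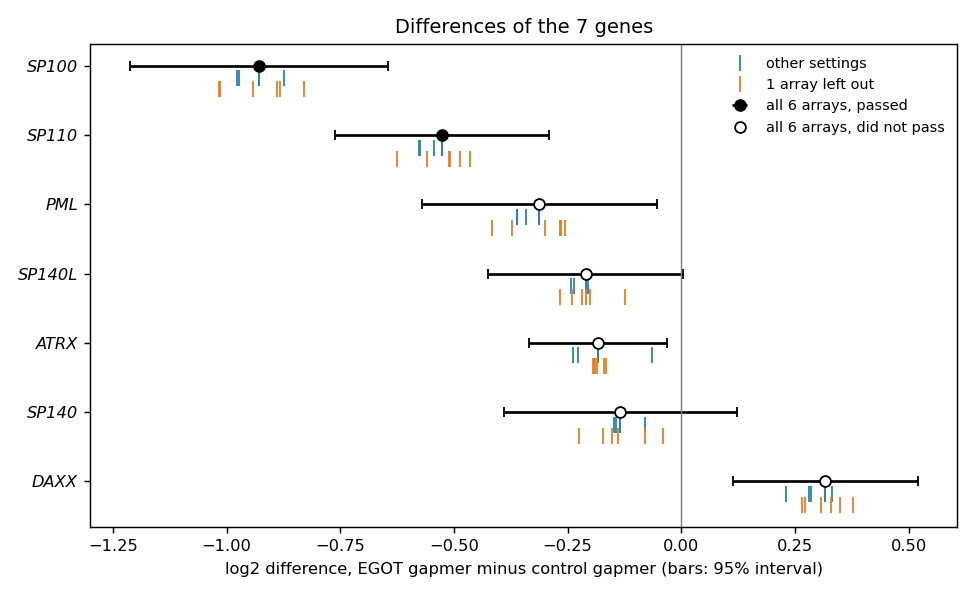
Log2 difference of each gene, EGOT gapmer minus control gapmer, with its 95% interval from limma; filled points passed the test over all genes. Blue ticks are the other settings with all 6 arrays and orange ticks the fits with 1 array left out, which for SP100 ran from -1.02 to -0.83.

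SP100 had the lowest log2 difference of the 7 genes, and its level was therefore also set against each of the others within the same array. SP100 minus SP110, taken within each array, was -0.62, -0.63 and -0.57 with the EGOT gapmer, against -0.26, -0.04 and -0.31 with the control gapmer, a difference of -0.40. SP100 minus PML gave a difference of -0.62, SP100 minus SP140L of -0.72, SP100 minus ATRX of -0.75, SP100 minus SP140 of -0.79 and SP100 minus DAXX of -1.25. In all 6 comparisons every EGOT gapmer array was below every control gapmer array. Each gave p = 0.1 by a two-sided exact permutation test, the smallest possible here, and 0.1 after Benjamini-Hochberg adjustment over the 6, so none can pass the threshold. The comparisons share the SP100 values and SP100 was known to have fallen, so they are not independent of each other or of that choice. Among the other genes, the 95% intervals of PML, SP140L, ATRX and SP140 overlapped each other, and their order by log2 difference was PML, SP140L, ATRX and SP140. The interval of SP110, -0.76 to -0.29, overlapped those of PML, SP140L, ATRX and SP140 and also that of SP100, -1.21 to -0.65.

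**Figure D3:**
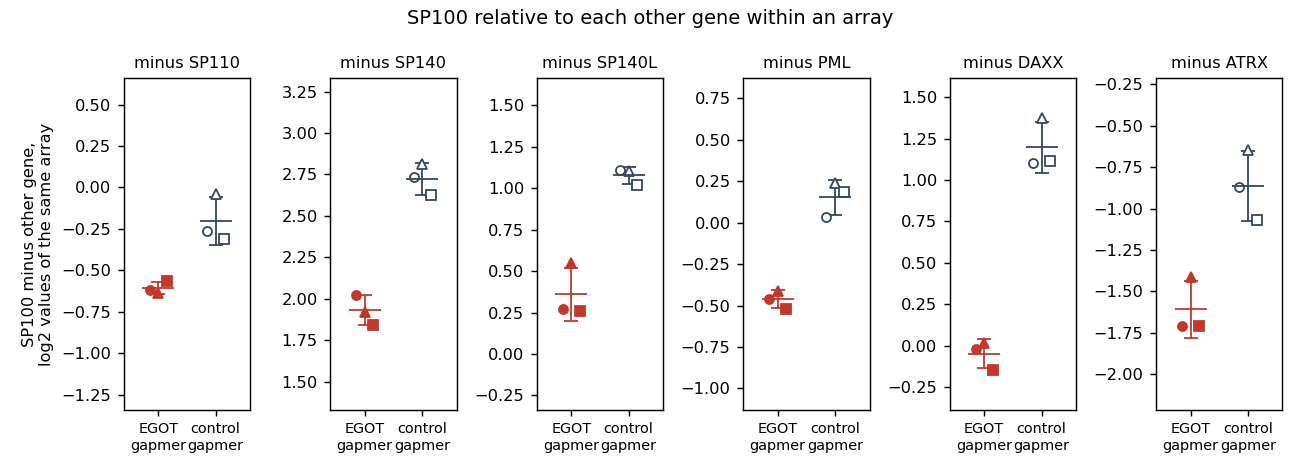
SP100 minus each of the other 6 genes in log2 values of the same array, EGOT gapmer arrays left and control gapmer arrays right, with mean and SD. In each panel the 3 EGOT gapmer arrays lie below the 3 control gapmer arrays; for SP110 the mean difference between the groups is -0.40 and for DAXX -1.25.

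EGOT gapmer replicate 2 held the highest EGOT gapmer value in 5 of the 7 (SP100, SP110, SP140, PML and DAXX) and in 52.2% of all genes. It held it in the same 5 after quantile normalization and after cyclic loess. Control gapmer replicate 2 held the highest control gapmer value in 5 of the 7 (SP100, SP110, SP140, SP140L and PML) and in 34.3% of all genes. After either normalization it did so in 3 of the 7. Shares of all genes were not taken after either normalization.

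The genes whose log2 values followed SP100 most closely over the 6 arrays, by Euclidean distance of values centred on each gene's mean, were EXOC6B, SCMH1, EPSTI1, DDX60 and FHIT. Their distances were 0.169 to 0.322, with Pearson r from 0.963 to 0.990 over 6 arrays that fall into 2 groups. EXOC6B, a subunit of the exocyst that tethers secretory vesicles, had a log2 difference of -0.95, and SCMH1, a Polycomb protein gene, of -0.80. EPSTI1 and DDX60 are both induced by interferon. EPSTI1 had mean log2 values of 5.97 with the EGOT gapmer and 6.97 with the control gapmer, and DDX60 had a log2 difference of -1.01. FHIT, a gene at a common fragile site, had one of -0.90. The 5 closest to SP110 were FOXP2, a transcription factor gene, STX18, NSMAF, KNSTRN and IFIH1, which encodes the viral RNA sensor MDA5. Their distances were 0.101 to 0.125, with r from 0.984 to 0.989, and their log2 differences were -0.55 to -0.45. SP100 and SP110 have no gene in common among their closest 5. The distance depends on the size of the group difference, -0.93 for SP100 and -0.53 for SP110. Separate lists therefore do not show that the 2 genes behave differently.

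Genes next to the SP100 family on chromosome 2 did not pass. Of 14 listed neighbours 10 were measured, 0 rose and 0 fell by limma, and 0 had an unadjusted p under 0.05, against 25.0% of all genes. Their median log2 difference was -0.01. TRIP12, a ubiquitin ligase gene on the SP110 side, differed by -0.06, with a 95% interval of -0.22 to 0.11 (limma adjusted p = 0.673). CAB39, on the SP100 side, differed by 0.01, with a 95% interval of -0.20 to 0.21 (limma adjusted p = 0.979).

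**Figure D4:**
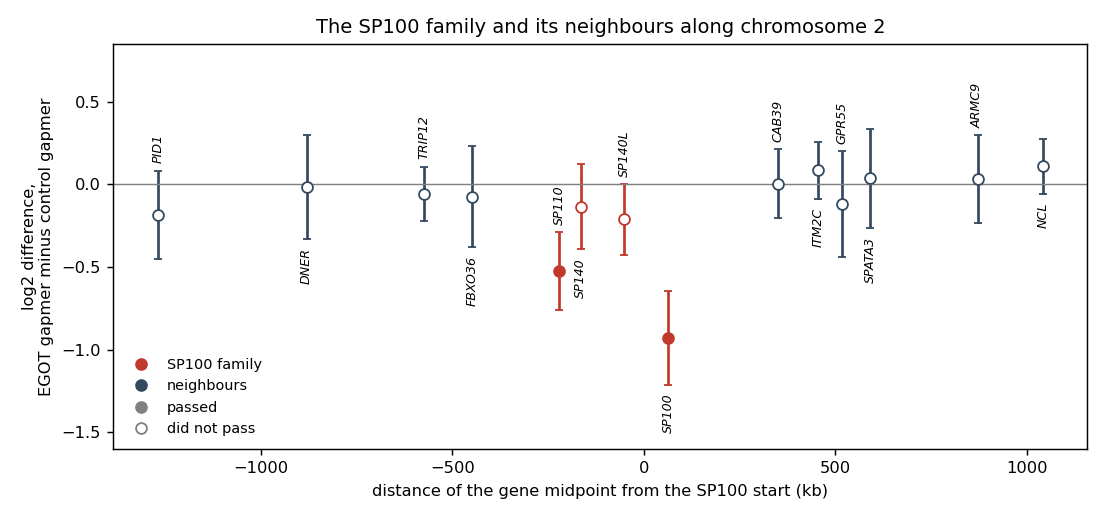
Log2 difference, EGOT gapmer minus control gapmer, with its 95% interval, against the distance of each gene's midpoint from the SP100 start in kb. SP100 at -0.93 and SP110 at -0.53 are the filled points; SP140, SP140L and the 10 neighbours did not pass.

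The 43 listed symbols of interferon-induced genes outside the family hold 1 gene under 2 symbols. Of them 31 genes were measured, 15 fell and 0 rose, where 3.21% of all genes fell, and their median log2 difference was -0.45. With 1 array left out, 7, 9 and 4 of the 31 fell without EGOT gapmer replicates 1, 2 and 3, and 1, 0 and 3 without control gapmer replicates 1, 2 and 3. IFI44, IRF1, IRF9, TRIM22 and TRIM25, 5 of the 15, passed in 0 of these 6 fits. The 6 with the smallest p were IFI44L (-1.48), RSAD2, the gene of the antiviral enzyme viperin (-1.36), DDX60 (-1.01), EPSTI1, HERC6, of the HERC ubiquitin ligase family (-0.66), and TRIM21, an antibody receptor and ubiquitin ligase gene (-0.53), with limma adjusted p-values from 0.00851 to 0.0215. SP100 and SP110 lay within the range of the list, which ran from -1.48 to 0.22. That range is wide and reaches past 0, and PML, SP140L, ATRX and SP140 also lay within it. Lying there therefore does not tie a gene to the list. Without control gapmer replicate 2, 0 of the 6 listed genes with the smallest p passed. Without control gapmer replicate 1 only IFI44L did, and without replicate 3 IFI44L, RSAD2 and DDX60 did. Without EGOT gapmer replicate 3 HERC6 and TRIM21 did not pass.

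Of 26 listed residents and partners of the bodies 16 were measured, 1 rose and 1 fell, with a median log2 difference of 0.01, where 8.41% of all genes passed. SUMO2, which encodes a SUMO protein, rose by 0.68 (limma adjusted p = 0.0289), with mean log2 values of 9.96 with the EGOT gapmer and 9.28 with the control gapmer. SKI, a corepressor of SMAD signalling, fell by 0.33 (limma adjusted p = 0.0436). With 1 array left out SUMO2 passed without EGOT gapmer replicate 1 or 2 only and SKI in 0 of 6 fits, and without the gene span trend neither did. SUMO2 was then at 0.59 (limma adjusted p = 0.0553) and SKI at -0.32 (limma adjusted p = 0.0662). HIPK2, a kinase of the bodies, differed by -0.33 (limma adjusted p = 0.0855). Of 18 listed enzymes that attach or remove SUMO 8 were measured and 0 passed by limma, with 2 at an unadjusted p under 0.05, near the 25.0% of all genes. SENP7, a SUMO protease, differed by -0.23 and SAE1, of the SUMO activating enzyme, by 0.22 (limma adjusted p = 0.128 each).

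Among genes of histone H3.3 deposition and chromatin silencing, 14 of 21 were measured, 2 rose and 0 fell, with a median log2 difference of 0.13, where 8.41% of all genes passed. With a variance trend 5 rose and 1 fell, where 11.2% of all genes rose and 5.73% fell. MPHOSPH8, a silencing complex subunit that binds methylated histone H3, rose by 0.49 (limma adjusted p = 0.0244) and CBX1, a heterochromatin protein gene, by 0.42 (limma adjusted p = 0.0293). With 1 array left out each passed only without EGOT gapmer replicate 1. With the trend on gene span removed MPHOSPH8 passed, at 0.44 (limma adjusted p = 0.0455), and CBX1 did not, at 0.36 (limma adjusted p = 0.0622). HIRA, a chaperone that deposits H3.3 apart from DAXX, differed by -0.11 (limma adjusted p = 0.411). Of 7 genes with SAND domains or related bromodomain proteins, all measured, 0 passed by limma and 2 had an unadjusted p under 0.05, near the 25.0% of all genes. They were GMEB1, at 0.26 (limma adjusted p = 0.0656), and TRIM24, at -0.29 (limma adjusted p = 0.0786).

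**Figure D5:**
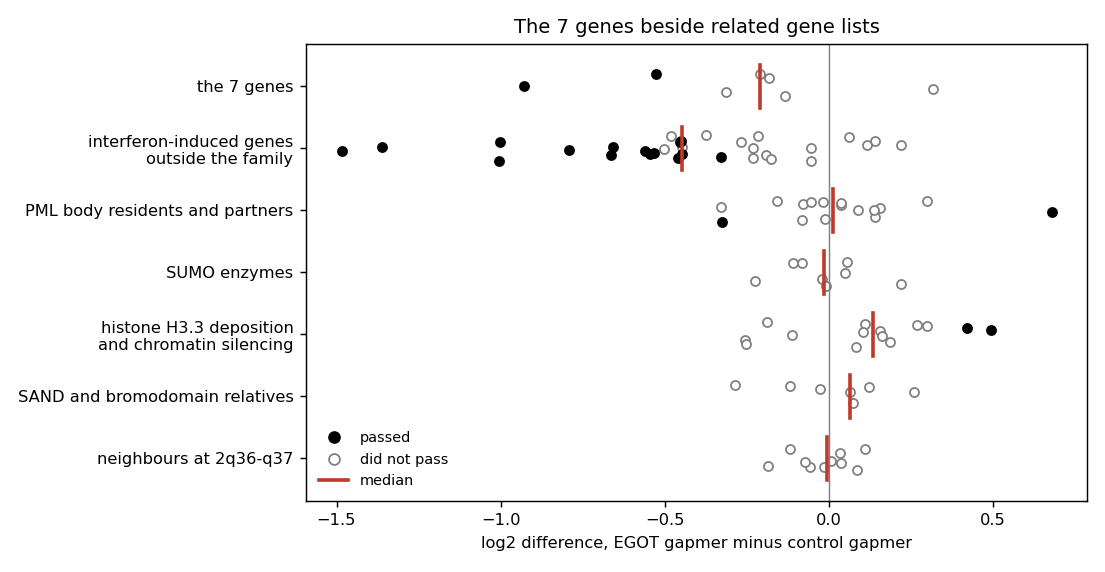
Log2 differences, EGOT gapmer minus control gapmer, of the 7 genes and of the genes measured in 6 related lists; filled points passed the test over all genes and red lines are medians. The interferon-induced genes have a median of -0.45 and the 7 genes one of -0.21, while the other medians lie between -0.01 and 0.13.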

How the data were processed

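Expression was deposited on a log2 scale; the submitters' processing notes name RMA as the authors' method. This method corrects background, sets the arrays to a shared distribution and summarises probes into probe sets, so a change in total RNA per cell would not be seen. Of 44629 probe sets 15835 (35.5%) carried 1 gene symbol in GEO's platform annotation, 0 carried several, and 28794 were not named here. All symbols matched RefSeq, assembly GRCh38.p14. Groups were compared, EGOT gapmer minus control gapmer, with lmFit and eBayes of limma 3.58.1 in R 4.3.3, two-sided, with Benjamini-Hochberg adjustment over 14812 genes and a threshold of 0.05 on the adjusted p. Arrays give no counts, and the 3 per group limit the precision. On data simulated from these 14812 genes the fit recovered 46% of 100 genes lowered by 0.5 and 84% of 100 lowered by 1 on the log2 scale, with 9 false calls among 139. The simulated noise was independent between genes and only the lowered genes were changed. In the data 1245 genes passed and shifts shared by the genes of an array can occur, so these rates may not hold for them.

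The members, the gene lists, the tests and the alternatives were chosen with earlier results of these data known. Named genes are the 7 members, EGOT, the 5 genes closest to each member that passed, and of each list the members that passed, or the 6 with the smallest p where more than 6 did. HIPK2, SENP7, SAE1, HIRA, GMEB1, TRIM24, TRIP12, CAB39, IFI44, IRF1, IRF9, TRIM22 and TRIM25 were named after their values were seen. Alternatives were the mean of probe sets, every probe set, quantile normalization, cyclic loess, a variance trend, a filter that drops the dimmer genes, up to the median gene's mean signal, the replicate number as a block, removal of the loess trend of the differences on log10 gene span, and each array left out. Promoter windows are RefSeq's, aligned with biopython 1.88. Exact permutation tests used scipy 1.17.1.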

Additional observations from a re-analysis of the deposited data

How the results depend on the processing

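EGOT, SP100, SP110, SP140, SP140L, PML, DAXX and ATRX kept the direction of their differences in every alternative run, and so did the other named genes that passed and the 6 differences between SP100 and another member. The number of genes past the threshold was 1245 with all arrays, 2513 with a variance trend, 2547 where dim genes were left out, 510 after removal of the gene span trend, and 9 to 579 with 1 array left out. Of the 7 members 2 passed, against 5 with a variance trend, 5 where dim genes were left out and 0 to 2 with 1 array left out. The filter on dim genes left out SP140 and EGOT. With 1 array left out SP100 had differences of -1.02 to -0.83, SP110 of -0.62 to -0.47 and EGOT of -1.92 to -1.67, and EGOT passed in all 6 fits. Such fits have fewer samples, and the cause was not tested further. Of the calls 61.8% were higher in the values as deposited, 50.2% after quantile normalization, 48.8% after cyclic loess and 47.6% after removal of the gene span trend. The 2 groups share replicate numbers, and the labels do not say whether these pair the samples. Deviations of same-numbered arrays correlated at -0.03, -0.05 and 0.04 over genes, and those of differently numbered arrays at -0.08 to 0.10. Such correlations cannot decide whether samples were handled in pairs. With the replicate block limma called 0 of 14812 genes and 0 of the 7 members, with 3438 genes at an unadjusted p under 0.05. SP100 was then at -0.93 (limma adjusted p = 0.0543), SP110 at -0.53 (limma adjusted p = 0.0679) and EGOT at -1.76 (limma adjusted p = 0.0543). A dim gene such as SP140 has little signal over background, which limits what can be seen.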

Other observations

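Several genes closest to SP100 and SP110 are long. EXOC6B spans 650.05 kb in RefSeq, SCMH1 215.1 kb, FHIT 1504.2 kb and FOXP2 607.4 kb, against a median of 20870.5 bp over the 14812 genes. With the trend of the differences on gene span removed, EXOC6B was at -0.77 (limma adjusted p = 0.0193), SCMH1 at -0.70 (limma adjusted p = 0.0146) and FHIT at -0.68 (limma adjusted p = 0.0203), while FOXP2, at -0.37 (limma adjusted p = 0.0542), no longer passed. The trend itself was -0.12 at the span of ATRX, -0.05 at that of SP100 and 0.09 at that of DAXX.

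Among the 10736 tested genes with a RefSeq window, 2456 hold AANNGAAA, the core letter pattern described above, on either strand. Of these 122 fell, or 4.97%, against 3.6% of all genes with a window, and 120 rose. The stricter pattern, GAAA and GAAA again after any 2 bases, is held by 418 of the tested genes. Of those 32 fell, or 7.66%, and 19 rose. Over all 14812 genes, with or without a window, 5.20% rose. No test was made of these differences.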
